A study of Arabidopsis thaliana with 8 samples.

Results

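Young and mature leaves of Arabidopsis thaliana, the thale cress, were compared at 21 days after germination on 4 of the 8 arrays of the study, 2 for each leaf class. The young sample of a plant was its newer 3 leaves and the mature sample its older 3, other than the cotyledons, and both came from untreated plants of the ecotype Columbia-0 (Col-0). All plants grew on plates of GM medium at 22 °C in long days (16 h of light, 8 h of dark), after 3 days in the cold (4 °C) and dark. The other 4 arrays, of whole plants at 2 days and of the above-ground part at 21 days, entered the choice of probes and the estimate of the spread between replicates, but not the means compared. How many plants were pooled for a sample is not given in the sources used here. The arrays were chosen by their labels and not by any measured value.

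A leaf of this plant is first built by dividing cells, which then stop dividing in a wave from tip to base, enlarge, and finish their cuticle, stomata and veins. A leaf that still grows takes in sugar and amino acids through the phloem, and a full-grown leaf sends them out. As the oldest leaves age, chlorophyll, protein and nucleic acids are taken apart, and nitrogen, phosphate and metals move to younger organs. NAC and WRKY transcription factors, ethylene, abscisic acid, jasmonate and salicylate are known to steer that programme.

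In mature leaves, genes of DNA replication, cell division, ribosomes, cuticle, secondary wall and stomatal formation were mostly lower. Genes of glucosinolate synthesis, chlorophyll breakdown, abscisic acid, CBL-interacting kinases and the senescence programme were mostly higher, together with single transporters and enzymes of nitrogen, metal and sugar movement. A level below is the log2 signal of a gene's brightest probe minus the 75th percentile of its array, so that 0 is the 75th percentile. A difference is the mean of the mature minus the mean of the young arrays on that log2 scale, with its standard error from a linear model (limma, n = 2 arrays a class). Of 20629 genes tested, 71.3% passed a Benjamini-Hochberg adjusted p of 0.05. In mature leaves 7386 (35.8%) were higher and 7319 (35.5%) lower, and 2816 (13.7%) and 3824 (18.5%) changed at least 2-fold in these directions. The words "rose" and "fell" below mean past that threshold, in mature relative to young leaves. Among the genes given with values, 296 passed it, with adjusted p from 1.01e-06 to 0.0444 (limma). They include RBCS1A, for which no direction is given below. With most genes called, the size of a change and the 2-fold counts say more than the call. Counts of rises and falls in a list below stand against these 35.8% and 35.5%, which several lists lie near.

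The median difference over all genes was 0.04. When the arrays were scaled on their Agilent spike-in controls in place of the 75th percentile, every difference moved, by between -0.96 and -0.86, and the median became -0.87. The median difference of a list's tested members stands in brackets after its counts. It is given again wherever its sign turns with normexp background correction or with quantile, median or spike-in scaling. Genes undetected on every leaf array (1540 of those tested, kept because another group showed them) had a median difference of 0.51, against a gap of 0.53 between the mean detection floors of the leaf classes, and rises called on such genes are counted in the same brackets. A gene is called undetected in a class where neither of its arrays was well above background, and then has only a lower bound of its fold. Such a gene passed the filter through another group, often the class where it was high. List medians use its measured level, and the median with the bound in its place is given too where it differs.

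Replicate arrays correlated across genes at 0.995 in young and 0.994 in mature leaves, and genes are not independent replicates. All 4 leaf arrays lay on 1 slide and were scanned together. Of 26 root genes tested, 9 were detected on both young and 8 on both mature arrays, and of 20 seed genes 4 and 2. Of 28 meristem and boundary genes 16 were detected on both young and 11 on both mature arrays. STM, KNAT1 and CLV3 were undetected on every leaf array. In contrast TFL1 was detected on both young arrays only, KNAT6 on 1 young array, and HAN, LSH3 and PNY on all 4 leaf arrays. In this list 10 genes rose, 6 of them undetected in leaves, and 7 fell (median 0.22, but -0.69 with spike-in scaling). The summed linear signal of the 28 meristem and boundary genes, as a multiple of the 75th percentile, was 8.46 and 8.35 in young and 10.3 and 9.99 in mature leaves. Over the 20 genes of phloem and vein it was 39.9 and 42.5 in young and 88.5 and 80.5 in mature leaves. Bright members weigh most in such a sum, and 11 of these 20 genes rose and 9 fell, 9 and 6 of them at least 2-fold. Over the 32 genes of secondary wall and xylem it was 31.3 and 30 in young and 26.8 and 23.9 in mature leaves. Over the 22 lipid transfer and epidermal genes it was 278 and 256 in young and 109 and 98.4 in mature leaves, and over the 32 stomatal genes 54 and 52.6 in young and 34.2 and 32 in mature leaves. The part of these tissues in the differences below was not tested. In whole leaves, fewer cells of a type and less RNA per cell cannot be told apart.

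**Figure D1:**
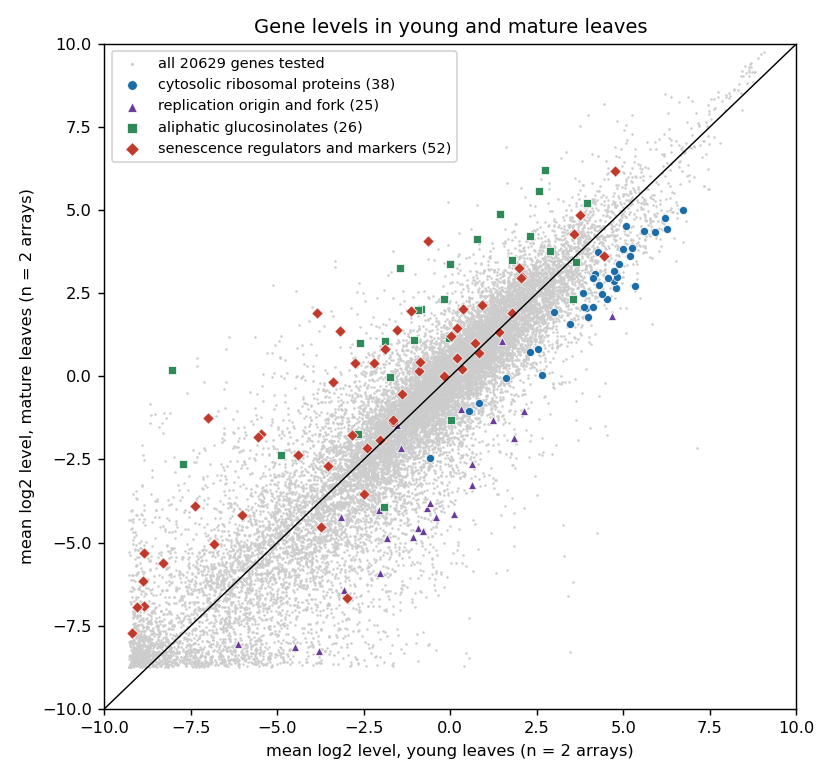
Mean log2 level of each gene tested in young leaves (horizontal axis) and in mature leaves (vertical axis), relative to the 75th percentile of each array, with the members of 4 lists coloured and the line of equal levels drawn. All 38 listed cytosolic ribosomal proteins and 24 of 25 listed replication genes were called lower. In the other lists 22 of 26 aliphatic glucosinolate genes and 36 of 52 senescence genes were called higher.

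Steep changes came from genes of unlike functions, of which a few are given here. NAS1 (AT5G04950), which makes the metal chelator nicotianamine, had levels of -4.98 and -3.96 in young and 2.68 and 2.47 in mature leaves. CYP81D11 (AT3G28740), a cytochrome P450, had levels of -5.51 and -5.81 in young and 1.50 and 0.89 in mature leaves. GOLS2 (AT1G56600), a galactinol synthase at the start of raffinose synthesis, had levels of -4.25 and -3.74 in young and 2.05 and 2.11 in mature leaves. For these 3 genes both mature arrays lay far above both young arrays, by 132-fold, 116-fold and 67.3-fold in the means. The beta-glucosidase gene BGLU11 rose by 6.11 ± 0.19 and the transcription factor gene WRKY26 by 5.99 ± 0.18. HIPP22, of a family of small metal-binding proteins, was undetected in young leaves and at least 109-fold higher in mature leaves.

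Among the falls, GER3 (AT5G20630), a germin-like protein of the cell wall, had levels of 6.74 and 7.50 in young and -3.39 and -0.91 in mature leaves. The young arrays were both high, and the mature arrays lay apart from each other, so that its difference of -9.27 ± 0.81 has a wide error. AGP4 (AT5G10430), an arabinogalactan protein of the cell surface, had levels of 1.83 and 1.85 in young and -4.80 and -4.28 in mature leaves. XTH9 (AT4G03210), an enzyme that cuts and rejoins xyloglucan in the wall, had levels of 4.43 and 4.61 in young and -1.75 and -1.78 in mature leaves. The classes did not overlap for either gene, and their means were 83.4-fold and 77.7-fold lower in mature leaves.

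Genes of cell division fell nearly throughout. Of 25 genes of DNA replication 24 fell and 0 rose (median -3.29, or -3.17 with bounds). ORC1B, a subunit of the origin recognition complex, was undetected in mature leaves and at least 6.09-fold lower. MCM2 (AT1G44900), part of the helicase that opens the DNA, had levels of 0.59 and 0.66 in young and -3.37 and -3.18 in mature leaves. Its classes were 14.9-fold apart, many times the gap between replicates. Of 31 cyclins, cyclin-dependent kinases and checkpoint genes 28 fell and 2 rose (median -4.12, or -3.32 with bounds). Of 24 genes of spindle and cytokinesis 23 fell and 0 rose (median -3.55, or -3.27 with bounds). The A-type cyclin CYCA2;4 and the B-type cyclin CYCB2;4 were at least 11.7-fold and 23.6-fold lower. CYCD3;1, which drives cells from G1 into S phase, fell by 3.31 ± 0.23. CDC20.1, an activator of the anaphase-promoting complex, fell by 5.76 ± 0.25, and BUBR1 of the spindle checkpoint by 5.04 ± 0.12.

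The inhibitors of the cycle did not move as a block. Of 24 CDK inhibitors and endocycle genes 15 fell and 4 rose (median -0.47). DEL1 and UVI4, which hold back the endocycle of DNA doubling without division, fell by 3.89 ± 0.13 and 3.15 ± 0.24, each detected on 1 of 2 mature arrays. The inhibitor gene KRP6 rose by 1.71 ± 0.13. Among 33 histone genes 25 fell and 3 rose (median -1.52). HTA11, an H2A variant, fell by 3.82 ± 0.15, and HTR12, the centromere histone, by 3.33 ± 0.11. HIS1-3 (AT2G18050), a stress-linked linker histone, went the other way with levels of -0.41 and -0.87 in young and 3.53 and 3.51 in mature leaves. Its level was 17.9-fold higher in mature leaves. Among genes that maintain DNA methylation, VIM3 fell by 3.49 ± 0.22, VIM1 by 3.38 ± 0.12 and CMT3 by 3.13 ± 0.09, in a list of 29 methylation and silencing genes with 14 falls and 10 rises (median -0.20, but 0.06 with median scaling).

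Ribosome genes fell together. All 38 cytosolic ribosomal protein genes of the list fell, 35 of them at least 2-fold (median -1.61). That list was written by hand with earlier results of these data known, and need not hold every such gene. Of 22 ribosome biogenesis genes 19 fell and 3 rose (median -1.30). FIB2 (AT4G25630), a fibrillarin that guides methylation of ribosomal RNA, had levels of 1.36 and 1.07 in young and -2.91 and -3.20 in mature leaves. NUC1 (AT1G48920), a nucleolin of the nucleolus, had levels of 3.42 and 3.58 in young and 0.93 and 1.12 in mature leaves. Both were lower in every mature array, by 19.4-fold and 5.56-fold. The related nucleolin NUC-L2 rose by 2.13 ± 0.44, but was detected on 1 mature array only. Of 22 translation factors 18 fell and 3 rose (median -0.84), with RACK1B falling by 3.33 ± 0.08 and RACK1C, its fellow ribosome-bound scaffold, by 3.22 ± 0.11. EIF5A rose by 1.07 ± 0.10 (0.16 with spike-in scaling, no longer past the threshold).

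Plastid gene expression fell with it. Of 30 genes of the plastid ribosome and plastid transcription 24 fell and 4 rose (median -0.93). FSD3, an iron superoxide dismutase of the plastid transcription complex, fell by 2.51 ± 0.08, and RPOTP, the plastid RNA polymerase encoded in the nucleus, by 2.23 ± 0.08. SIG5 (AT5G24120), a sigma factor that responds to blue light and stress, had levels of -0.55 and -1.33 in young and 2.78 and 2.30 in mature leaves. It rose 11.1-fold against the direction of its list.

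The photosynthetic apparatus itself changed little. Of 52 antenna, photosystem and electron transport genes 28 rose and 6 fell, but 1 and 3 by at least 2-fold (median 0.35, but -0.02 with quantile normalization and -0.56 with spike-in scaling). The antenna gene LHCB7 rose by 1.21 ± 0.12 (0.30 with spike-in scaling, no longer past the threshold) and LHCB4.3 fell by 1.92 ± 0.17. Of 21 Calvin cycle genes 7 rose and 2 fell (median 0.24, but -0.05 with quantile normalization and -0.67 with spike-in scaling). Their largest change was that of CP12-3, a regulator of the cycle, with 1.57 ± 0.08. The Rubisco small subunit gene RBCS1A had a difference of 0.39 ± 0.08 at its brightest probe, while 5 other probes of the gene were called in the other direction, so that no direction is given for it. Of 19 photorespiration genes 10 rose and 4 fell (median 0.71, but -0.20 with spike-in scaling), GGT1, the peroxisomal glutamate:glyoxylate aminotransferase, rising by 1.64 ± 0.14.

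Chlorophyll synthesis and breakdown moved in opposite directions. Of 23 synthesis genes 18 fell and 1 rose (median -1.0), and of 12 breakdown genes 9 rose and 0 fell (median 1.19). PORA (AT5G54190), a light-dependent protochlorophyllide reductase, had levels of 2.67 and 2.65 in young and -2.22 and -1.48 in mature leaves. GSA1, which makes the first tetrapyrrole precursor, aminolevulinate, fell by 1.87 ± 0.08. NYE2 (AT4G11910), of the STAY-GREEN family that takes the magnesium out of chlorophyll, had levels of -4.25 and -4.20 in young and -1.30 and -1.20 in mature leaves. The classes were separate for both, 22.7-fold lower for PORA and 7.88-fold higher for NYE2 in mature leaves. PPH, the pheophytinase, rose by 1.68 ± 0.06, PAO, which opens the chlorophyll ring, by 1.32 ± 0.10, and CV, which brings chloroplast proteins to the vacuole, by 1.57 ± 0.17. Of 24 genes of carotenoids and tocopherols 11 rose and 4 fell (median 0.48, but -0.42 with spike-in scaling). NCED4, a carotenoid cleavage dioxygenase, rose by 2.65 ± 0.21 and HPPD, which starts tocopherol synthesis, by 1.92 ± 0.31, while VTE2, the next enzyme of that branch, fell by 1.25 ± 0.12.

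Genes of central carbon metabolism changed in both directions. In the list of glycolysis, citric acid cycle and respiration the share was 32.1% each way, near the 35.8% and 35.5% of all genes tested. Of 35 starch genes 9 rose and 7 fell (median 0.07, but -0.84 with spike-in scaling), and of 53 genes of glycolysis, the citric acid cycle and respiration 17 rose and 17 fell (median 0.09, but -0.81 with spike-in scaling; 1 rise undetected in leaves). Of 44 genes of sucrose, trehalose and raffinose 22 rose and 10 fell, 17 and 7 of them at least 2-fold (median 0.50, but -0.41 with spike-in scaling; 1 rise undetected in leaves). TPS10, a class II trehalose-6-phosphate synthase protein, rose by 2.94 ± 0.22, GOLS1 by 2.84 ± 0.48 and SPS4F, a sucrose phosphate synthase, by 2.65 ± 0.20. Its paralogue SPS3F was undetected in mature leaves and at least 8.97-fold lower, and TPPF, a trehalose-6-phosphate phosphatase, fell by 2.31 ± 0.19. AOX1D, an alternative oxidase of mitochondria, rose by 2.86 ± 0.10, while ENO1, the plastid enolase, fell by 1.76 ± 0.12 and MMDH1, mitochondrial malate dehydrogenase, by 1.75 ± 0.08.

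Of 34 genes of fermentation and alternative fuels 25 rose and 2 fell (median 0.58, but -0.33 with spike-in scaling; 1 rise undetected in leaves). PPDK (AT4G15530), pyruvate orthophosphate dikinase, known to help move nitrogen out of ageing leaves, had levels of -1.26 and -2.19 in young and 3.39 and 2.88 in mature leaves. BCAT2 (AT1G10070), a branched-chain aminotransferase, had levels of -5.18 and -6.11 in young and -0.82 and -1.08 in mature leaves. The mature arrays of both genes lay above the young ones, 29-fold and 25.9-fold in the means. IVD, which oxidises the products of branched-chain amino acids, rose by 1.81 ± 0.12 and ADH1, alcohol dehydrogenase, by 2.80 ± 0.17. PYD4 (AT3G08860), an aminotransferase linked to pyrimidine breakdown, had levels of -6.29 and -5.28 in young and -0.05 and -0.90 in mature leaves, a 39.7-fold rise. Of 20 genes of nucleotide breakdown and salvage 10 rose and 7 fell (median 0.45, but -0.45 with spike-in scaling). AAH and ALN, of purine breakdown, rose by 1.75 ± 0.14 and 1.43 ± 0.07, and ADK1, which salvages adenosine, fell by 1.82 ± 0.08. BFN1, a nuclease known from senescence and dying cells, fell by 2.05 ± 0.12.

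Paralogues of nitrogen assimilation did not all move one way. Of 38 genes 17 rose and 11 fell (median 0.25, but -0.66 with spike-in scaling). The nitrate reductase genes NIA2 (AT1G37130), with levels of 3.58 and 3.10 in young and 6.77 and 6.75 in mature leaves, and NIA1 (AT1G77760), with levels of 2.92 and 2.76 in young and 5.56 and 6.09 in mature leaves, were both higher in mature leaves, 10.7-fold and 7.9-fold. GLN1;1, a cytosolic glutamine synthetase, rose by 1.35 ± 0.08 and GLN1;4 and GLN1;3 fell by 1.50 ± 0.15 and 1.47 ± 0.17. The plastid glutamine synthetase GS2 had a difference of 0.02 ± 0.08 and the asparagine synthetase ASN1 of 0.29 ± 0.30, neither past the threshold (adjusted p = 0.879 and 0.419, limma). ASP4, an aspartate aminotransferase, rose by 3.40 ± 0.18 and ASN2 by 2.33 ± 0.08. For ASN1 the young arrays lay apart from each other, with levels of 1.04 and 0.39 in young and 1.0 and 1.0 in mature leaves. Of 37 sulfate and glutathione genes 19 rose and 6 fell (median 0.60, but -0.31 with spike-in scaling; 1 rise undetected in leaves). APS4, an ATP sulfurylase, rose by 3.05 ± 0.14 and SULTR3;5, a sulfate transporter, by 2.46 ± 0.26, while GGCT2;1, which recycles glutathione, fell by 3.23 ± 0.23.

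Genes of glucosinolate synthesis mostly rose. Of 26 genes of aliphatic glucosinolates 22 rose, 20 of them at least 2-fold, and 4 fell (median 2.52). BCAT4 (AT3G19710), the first step of methionine chain elongation, had levels of -1.59 and -1.30 in young and 3.30 and 3.20 in mature leaves. MAM3, which elongates the chain, was undetected in young leaves and at least 139-fold higher. CYP79F2, which makes the oxime, was at least 19.8-fold higher. MYB28, MYB29 and MYB76, the regulators of the pathway, rose by 1.73 ± 0.07, 2.14 ± 0.12 and 2.55 ± 0.07. FMOGS-OX2, an enzyme of the side chain, and AOP1, a relative of such enzymes, fell by 2.02 ± 0.26 and 1.33 ± 0.09. Of 23 genes of indole glucosinolates and camalexin 17 rose and 2 fell (median 1.35, or 1.21 with bounds). CYP81F2 rose by 3.65 ± 0.67 (detected on 1 of 2 young arrays) and CYP79B3 by 2.43 ± 0.11.

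The enzymes that break glucosinolates had changes in both directions. TGG2 (AT5G25980), a myrosinase, had levels of 5.90 and 5.78 in young and 1.42 and 1.71 in mature leaves, a fall of 19.3-fold. NSP4, a nitrile specifier protein, was at least 11.6-fold lower and undetected in mature leaves. Of 19 breakdown genes 8 fell and 4 rose (median -0.26, but 0.19 with normexp correction), and the nitrilase NIT2 was at least 52.1-fold higher. In flavonoid synthesis 13 of 29 genes fell and 9 rose (median -0.36, but 0.39 with normexp correction; 2 rises undetected in leaves). Chalcone synthase (CHS, AT5G13930) had levels of 0.26 and -0.64 in young and -6.29 and -6.38 in mature leaves and was undetected in mature leaves, at least 70.8-fold lower. MYB111, an activator of flavonol genes, was at least 7.69-fold lower. FLS1, flavonol synthase, fell by 2.67 ± 0.09. MYBL2, a repressor of anthocyanin genes, rose by 1.54 ± 0.13. Of 31 genes of phenylpropanoids and lignin 10 rose and 11 fell (median 0.14, but -0.77 with spike-in scaling; 1 rise undetected in leaves), with 4CL3 falling by 4.53 ± 0.10 and UGT72E1 rising by 3.62 ± 0.10. The phenylpropanoid and lignin shares of 32.3% higher and 35.5% lower lay near the 35.8% and 35.5% of all genes tested. Of 32 isoprenoid and sterol genes 12 fell and 6 rose (median -0.09, but 0.17 with median scaling). DWF1, of sterol synthesis, fell by 2.45 ± 0.07.

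Genes of surface lipids mostly fell. Of 51 genes of cuticular wax and cutin 44 fell, 30 of them at least 2-fold, and 2 rose (median -1.56). CYP86A4, a cutin monomer hydroxylase, CER4, which makes wax alcohols, and CUS2, of the cutin synthase family, were undetected in mature leaves and at least 49.5-fold, 43.8-fold and 29.7-fold lower. HTH (AT1G72970), needed for the cuticle that keeps organs apart, had levels of 4.15 and 3.93 in young and -1.60 and -1.51 in mature leaves, a 48.5-fold fall. CER6, a fatty acid elongase of wax, rose by 0.65 ± 0.10, which turned to -0.25 with spike-in scaling. Of 30 genes of fatty acid synthesis 21 fell and 2 rose (median -0.90; 1 rise undetected in leaves), and BCCP2, a subunit of plastid acetyl-CoA carboxylase, fell by 3.85 ± 0.15. Of 22 lipid transfer and epidermal identity genes 15 fell and 4 rose (median -1.04; 2 rises undetected in leaves). EARLI1, a protein related to lipid transfer proteins, was at least 1.76-fold higher, while LTP2 fell by 3.09 ± 0.38. Of 27 genes of fatty acid breakdown and storage lipid 17 rose and 1 fell (median 0.55, but -0.36 with spike-in scaling; 1 rise undetected in leaves). Of 22 genes of membrane lipid turnover 14 rose and 3 fell (median 0.67, but -0.24 with spike-in scaling; 1 rise undetected in leaves), PLA2A, a patatin-like lipase, by 4.29 ± 0.47.

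In the cell wall, 35 of 42 arabinogalactan proteins fell and 2 rose (median -2.02; 2 rises undetected in leaves). FLA2 (AT4G12730), a fasciclin-like member, had levels of 2.94 and 2.96 in young and -2.38 and -2.30 in mature leaves, a 39.2-fold fall. Of 32 genes of secondary wall and xylem 27 fell and 4 rose (median -1.97, or -1.84 with bounds). The protease XCP1 of forming vessels fell by 3.18 ± 0.08 and the master regulator VND6 by 2.81 ± 0.17. Of 25 genes of the primary wall 17 fell and 2 rose (median -0.43). Expansins, which loosen the wall, fell in 15 of 26 genes and rose in 3 (median -1.03, but 0.01 with normexp correction; 1 rise undetected in leaves). EXPA15 fell by 3.54 ± 0.08, and EXPA1 rose by 1.13 ± 0.11 (0.22 with spike-in scaling, no longer past the threshold). Of 30 xyloglucan endotransglucosylases 11 rose and 9 fell, XTH31 with 2.88 ± 0.12 and XTH16 with -4.03 ± 0.15. Their median was -0.15, or -0.13 with bounds, but 0.52 with normexp correction and 0.11 with median scaling, and 3 rises were undetected in leaves. Of 23 pectin genes 6 rose and 5 fell (median 0.16, but -0.75 with spike-in scaling; 2 rises undetected in leaves). The pectin methylesterase PME5 fell by 6.08 ± 0.10 and its relative PME2 rose by 3.10 ± 0.16.

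Regulators of leaf form were unevenly affected. Of 32 stomatal genes 22 fell and 2 rose (median -1.05, or -0.87 with bounds). The early lineage genes MUTE and POLAR were undetected in mature leaves and at least 31.7-fold and 26.4-fold lower. TMM (AT1G80080), a receptor protein that spaces stomata, had levels of 2.34 and 2.25 in young and -2.04 and -1.84 in mature leaves, an 18.8-fold fall. Not all stomatal genes passed the threshold. The guard cell channel genes SLAC1 and GORK and the lineage regulator FAMA, chosen after their values were seen, differed by -0.05 ± 0.12, -0.14 ± 0.16 and -0.20 ± 0.10, none past the threshold (adjusted p = 0.751, 0.457 and 0.111, limma). With spike-in scaling these 3 genes fell by 0.95, 1.05 and 1.11, and without the second mature array FAMA fell by 0.32. Of 24 trichome genes 11 fell and 8 rose (median -0.35, but 0.20 with normexp correction; 1 rise undetected in leaves), and the initiation gene GL1 was at least 9.01-fold lower. Of 9 growth-regulating factors 5 fell and 0 rose (median -1.61, or -1.08 with bounds, but 0.03 with normexp correction). GRF9 and GRF5 were at least 13.7-fold and 4.7-fold lower (GRF5 at -0.20 with normexp correction, no longer past the threshold). GRF1, GRF3 and GRF8 had differences of -0.04 ± 0.19, 0.01 ± 0.18 and 0.31 ± 0.43, none past the threshold (adjusted p = 0.869, 0.956 and 0.548, limma). With spike-in scaling the differences of GRF1, GRF3 and GRF8 became -0.95, -0.90 and -0.60. Of 37 other growth regulators 11 rose and 10 fell (median 0.10, but -0.81 with spike-in scaling; 1 rise undetected in leaves). ANT, which prolongs growth of organs, fell by 2.78 ± 0.08, and TCP4, which ends division, fell by 1.99 ± 0.15. Of 25 polarity genes 12 fell and 10 rose (median -0.11, but 0.15 with median scaling; 1 rise undetected in leaves). AS2, an upper-side factor detected on 1 of 2 mature arrays, fell by 2.15 ± 0.15 (-0.14 with normexp correction, no longer past the threshold), and KAN3 of the lower side rose by 1.89 ± 0.08.

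Of 42 genes of phase change and flowering 17 rose and 11 fell (median 0.36, but -0.55 with spike-in scaling). FT (AT1G65480), the florigen that leaves send to the apex, had levels of -8.46 and -7.50 in young and -2.41 and -2.46 in mature leaves. It was undetected in young leaves and at least 22.7-fold higher in mature ones. FLC, the repressor of FT, was likewise undetected in young leaves and at least 4.03-fold higher. SPL15, SPL3 and SPL9, which are among the promoters of adult identity that miR156 restrains, fell by 2.66 ± 0.17, 1.90 ± 0.10 and 1.27 ± 0.11. In contrast SPL4 of the same family rose by 2.18 ± 0.15, and SNZ, an AP2-like repressor of flowering, rose by 1.94 ± 0.13. SEP1, known from flowers, fell by 2.73 ± 0.19 and SEP3 rose by 1.61 ± 0.26, whereas the petal and stamen gene AP3 was undetected on every leaf array. Of 17 flower and stem markers in all, 6 rose and 5 fell (median 0.53, but -0.38 with spike-in scaling; 1 rise undetected in leaves).

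Senescence regulators rose in most cases. Of 52 regulators and markers 36 rose, 31 of them at least 2-fold, and 4 fell (median 1.25; 2 rises undetected in leaves). ORE1 (AT5G39610), a NAC factor that promotes leaf death, had levels of -3.88 and -3.83 in young and 1.96 and 1.87 in mature leaves. NAP (AT1G69490), a NAC factor that acts with abscisic acid, had levels of -0.62 and -1.68 in young and 2.27 and 1.67 in mature leaves. SEN1 (AT4G35770), a gene induced by darkness, had levels of -0.42 and -0.87 in young and 4.13 and 4.04 in mature leaves. In all 3 the mature arrays lay above the young ones, 54.7-fold, 8.73-fold and 26.4-fold in the means. ANAC047, another NAC factor, was undetected in young leaves and at least 51.8-fold higher, and the stress protein SAG21 rose by 4.55 ± 0.14. WRKY53, often used as an early marker, went the other way and was at least 10.3-fold lower. SAG12, the protease of late senescence, had a probe on the array but was not well above background in any of the 4 groups. Of 34 autophagy genes 30 rose and 0 fell (median 0.69, but -0.22 with spike-in scaling), ATG18G by 1.83 ± 0.07 and ATG12A by 1.75 ± 0.07. Of 25 vacuolar and cysteine proteases 14 rose and 6 fell (median 0.54, but -0.37 with spike-in scaling). The metacaspase MC2 rose by 3.08 ± 0.25 and the vacuolar processing enzyme GAMMA-VPE by 2.50 ± 0.12, while MC9 and PASPA3, known from dying xylem and root cap cells, fell by 1.60 ± 0.10 and 1.86 ± 0.10.

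**Figure D2:**
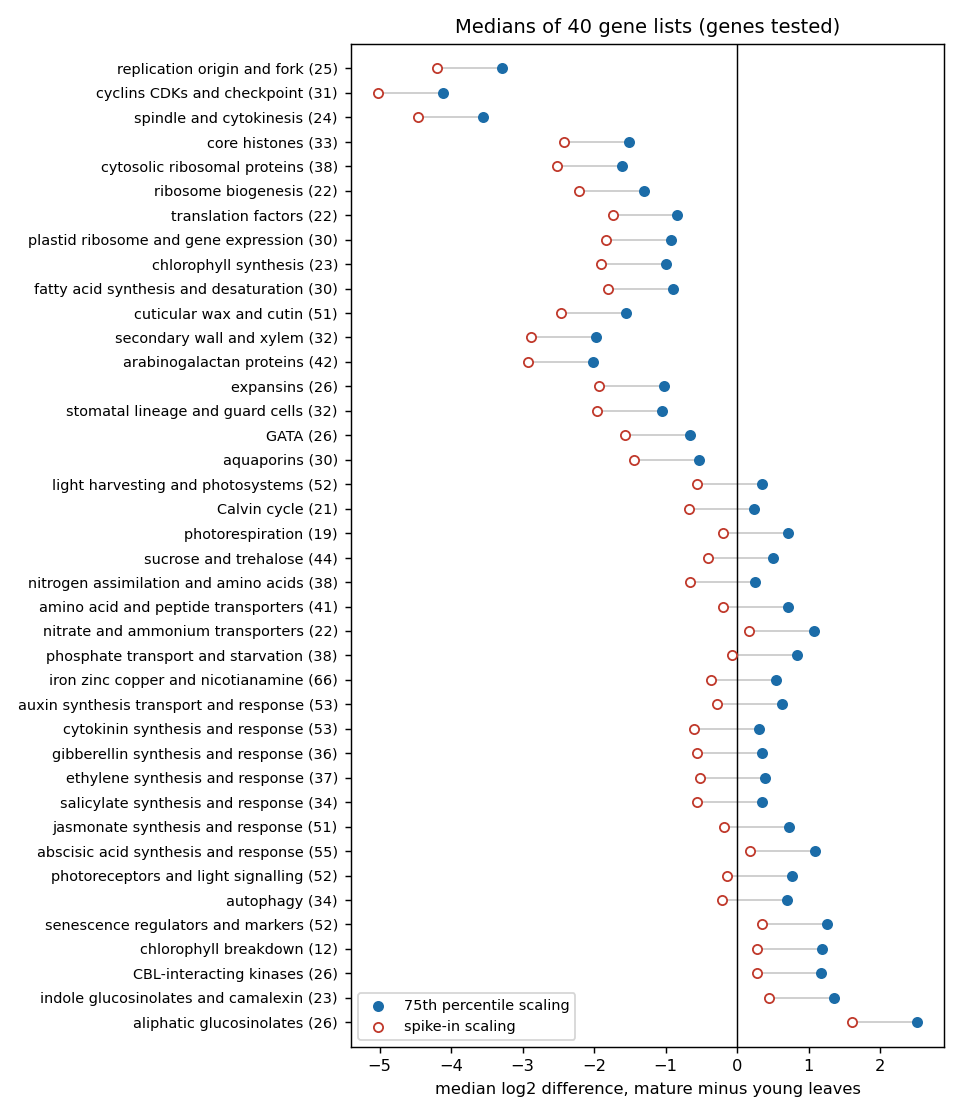
Median log2 difference, mature minus young leaves, of 40 gene lists and families (filled points, signals scaled on the 75th percentile of the array) and the same median with spike-in scaling (open points), with 0 drawn. Division, ribosome, wall and cuticle lists lie below 0 under both scalings, the lists of aliphatic and indole glucosinolates, senescence, chlorophyll breakdown, abscisic acid, nitrate transporters and CBL-interacting kinases lie above 0 under both, and the other lists with medians above 0 cross it with spike-in scaling.

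Genes of abscisic acid, a hormone of drought and ageing, mostly rose. Of 55 genes 38 rose and 5 fell (median 1.09, or 1.06 with bounds, and 2 rises undetected in leaves). NCED3 (AT3G14440), the rate-limiting step of synthesis under stress, had levels of -4.74 and -4.84 in young and -0.61 and -0.51 in mature leaves. CYP707A4 (AT3G19270), which breaks the hormone down, had levels of -5.14 and -5.83 in young and -0.89 and -1.57 in mature leaves. Both were higher in mature leaves, 18.7-fold and 19.1-fold, whereas the paralogue CYP707A3 fell by 2.14 ± 0.13 (-0.05 with normexp correction, no longer past the threshold). The exporter gene ABCG25 rose by 2.23 ± 0.11 and the receptor gene PYL5 by 2.37 ± 0.13. Of the phosphatases that the receptors restrain, HAI2 rose by 3.42 ± 0.15 and HAI1 by 2.03 ± 0.30. The response gene RD26, a NAC factor, rose by 3.63 ± 0.09.

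Of 51 jasmonate genes 31 rose and 6 fell (median 0.72, but -0.19 with spike-in scaling). In synthesis, AOC1 (AT3G25760), an allene oxide cyclase, had levels of -2.29 and -2.98 in young and 2.88 and 2.73 in mature leaves, a 43.4-fold rise, AOS rose by 1.96 ± 0.07 and LOX2 fell by 1.30 ± 0.38. The call on LOX2 was lost without either young array and without the first mature array, with differences of -1.23, -1.36 and -1.11. In the branch shared with ethylene, the regulator ORA59 (AT1G06160) had levels of -6.40 and -6.19 in young and -1.64 and -0.90 in mature leaves, and the defensin PDF1.2 (AT5G44420) had levels of -5.74 and -5.15 in young and -1.17 and 0.62 in mature leaves. The young arrays lay low in both, and the rises were 32.5-fold and 36-fold. The defensins PDF1.2, PDF1.2B and PDF1.3 are near-identical copies whose probes may share signal. In the branch of MYC2, which itself differed by 0.73 ± 0.09, the storage proteins VSP1 and VSP2 fell by 2.47 ± 0.18 and 2.30 ± 0.17 and the repressor JAZ10 by 3.39 ± 0.18. The rise of MYC2 turned to -0.18 with spike-in scaling.

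In the ethylene list 20 of 37 genes rose and 5 fell (median 0.39, but -0.52 with spike-in scaling; 2 rises undetected in leaves). The factor ERF1 was undetected in young leaves and at least 12.7-fold higher, the receptor ETR2 rose by 2.15 ± 0.15, and ACS11, which makes the ethylene precursor, was at least 4.56-fold lower (-0.21 with normexp correction, no longer past the threshold). Of 34 salicylate genes 17 rose and 9 fell (median 0.35, but -0.56 with spike-in scaling; 1 rise undetected in leaves). PR2 and SARD1 were at least 3.2-fold and 2.5-fold higher. In contrast PR5 fell by 2.31 ± 0.26 and NIMIN1, which binds the receptor NPR1, was at least 6.4-fold lower. ICS1, which makes most salicylate in defence, had a difference of 0.24 ± 0.15 (adjusted p = 0.177, limma), with levels of -1.52 and -1.76 in young and -1.28 and -1.51 in mature leaves. Salicylate markers therefore lay on both sides of 0.

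Genes of the growth hormones moved both ways. Of 53 cytokinin genes 21 rose and 20 fell (median 0.30, but -0.61 with spike-in scaling, and 5 rises undetected in leaves). These cytokinin shares of 39.6% and 37.7% lay near the 35.8% and 35.5% of all genes tested. IPT3 (AT3G63110), a synthesis gene of phloem, had levels of -2.79 and -2.93 in young and 0.76 and 0.62 in mature leaves, and CKX1, which destroys cytokinin, was at least 5.08-fold higher. CKX4, of the same family, fell by 2.99 ± 0.15. The response regulator ARR15 fell by 4.91 ± 0.21, detected on 1 of 2 mature arrays, and ARR7 by 1.06 ± 0.23. Of 36 gibberellin genes 17 rose and 10 fell (median 0.34, but -0.57 with spike-in scaling; 3 rises undetected in leaves). GA20OX2, of synthesis, was at least 8.4-fold higher, GA20OX1 fell by 1.0 ± 0.15, and GA2OX2, of breakdown, was at least 2.72-fold lower, which normexp background correction turned to a difference of 0.12. GASA4 (AT5G15230), a gibberellin-regulated peptide, had levels of 4.34 and 4.61 in young and -0.49 and 0.11 in mature leaves, a 25.4-fold fall. The receptor GID1B rose by 2.18 ± 0.09 and the repressors RGL1 and GAI fell by 2.08 ± 0.13 and 1.36 ± 0.16.

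Of 53 auxin genes 29 rose and 12 fell (median 0.63, but -0.28 with spike-in scaling; 3 rises undetected in leaves). PID, a protein kinase of auxin transport, fell by 1.22 ± 0.14. PIN5, which acts inside the cell, was at least 6.33-fold higher and the auxin-oxidising DAO1 rose by 1.46 ± 0.14. Of 43 brassinosteroid genes 22 rose and 12 fell (median 0.22, but -0.69 with spike-in scaling; 1 rise undetected in leaves). IBH1, which restrains cell elongation, rose by 2.69 ± 0.11 and ROT3, of synthesis, by 2.25 ± 0.08, while EXO, a growth-linked target, fell by 2.14 ± 0.12 and DWF4, of synthesis, by 0.96 ± 0.15. Of 39 genes of strigolactone, karrikin and peptide signals 24 rose and 8 fell (median 0.64, but -0.27 with spike-in scaling; 3 rises undetected in leaves). BRC1, which holds back branching, was at least 2.83-fold higher, and the phloem genes SMXL4, SMXL5 and SMXL3 fell by 2.19 ± 0.12, 1.58 ± 0.11 and 1.50 ± 0.13. PSK4, a precursor of the peptide phytosulfokine, rose by 4.52 ± 0.09.

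**Figure D3:**
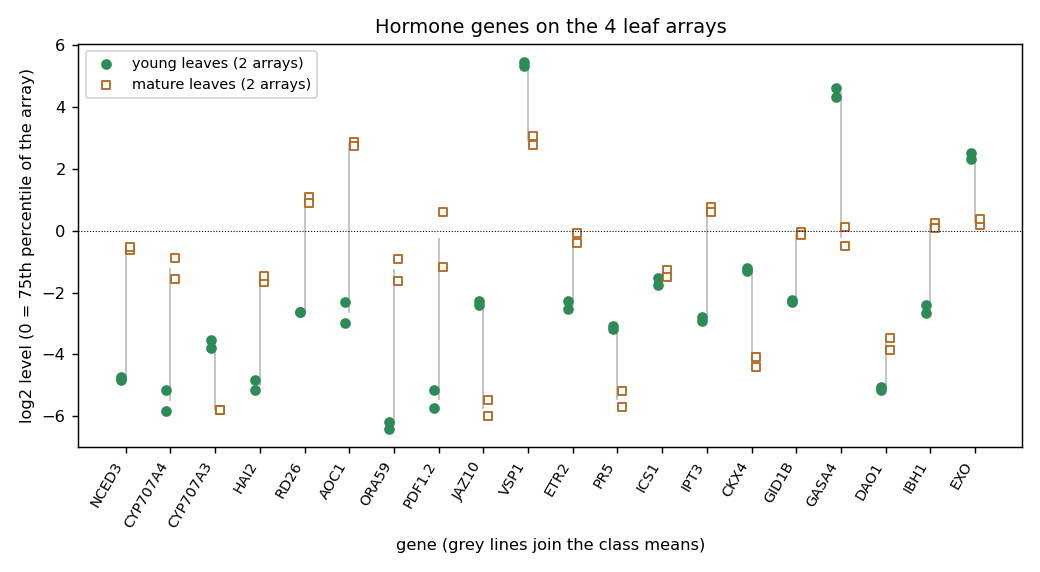
Log2 level on each of the 4 leaf arrays of 20 hormone genes, 2 young (filled circles) and 2 mature arrays (open squares) per gene, relative to the 75th percentile of the array. NCED3, AOC1, ORA59 and IPT3 lie higher on both mature arrays, GASA4, JAZ10 and CKX4 lie lower, and the classes nearly touch for ICS1.

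Of 52 photoreceptor and light signalling genes 29 rose, 17 of them at least 2-fold, and 2 fell (median 0.77, but -0.14 with spike-in scaling; 1 rise undetected in leaves). PIL2, a bHLH protein related to the phytochrome-interacting factors, was at least 5.86-fold higher, HFR1, which curbs shade growth, rose by 2.48 ± 0.38, and PHYA, the far-red photoreceptor, by 1.96 ± 0.07. Of 29 clock genes 8 rose and 2 fell (median 0.53, but -0.38 with spike-in scaling). CCA1, a morning gene, had levels of 0.97 and -0.65 in young and 2.31 and 1.54 in mature leaves. TOC1, an evening gene, had levels of -1.41 and 0.09 in young and -1.60 and -0.45 in mature leaves. The replicates of each class were far apart for both, and TOC1 did not pass the threshold (difference -0.36 ± 0.69, adjusted p = 0.657, limma) while CCA1 did (1.76 ± 0.63). The call on CCA1 was lost without the second young array or either mature array, with differences of 0.95, 1.38 and 2.15. The sources used here give no hour of harvest, and its part in these differences was not tested.

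Of 24 cold-response genes 8 rose and 3 fell (median 0.51, but -0.40 with spike-in scaling), with COR413IM1, a chloroplast membrane protein, rising by 2.71 ± 0.57. Of 33 heat shock genes and chaperones 13 rose and 11 fell (median 0.38, but -0.53 with spike-in scaling). The shares higher and lower were 33.3% and 12.5% for cold response and 39.4% and 33.3% for heat shock. Those of all genes tested were 35.8% and 35.5%. The chloroplast chaperonins CPN60A and CPN60B fell by 2.30 ± 0.10 and 2.15 ± 0.11, and the stress-induced factor HSFA7A rose by 3.37 ± 0.19. Of 40 redox genes 20 rose and 9 fell (median 0.28, but -0.63 with spike-in scaling; 2 rises undetected in leaves). CAT2 (AT4G35090), the catalase of peroxisomes in leaf cells, had levels of 4.52 and 4.01 in young and 6.81 and 6.43 in mature leaves, a 5.12-fold rise. Of 37 immunity genes 17 rose and 5 fell (median 0.38, but -0.53 with spike-in scaling), 4 and 4 of them at least 2-fold.

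Of 41 amino acid and peptide transporters 26 rose and 9 fell (median 0.71, but -0.20 with spike-in scaling; 1 rise undetected in leaves). AAP4 (AT5G63850), an amino acid permease, had levels of -3.15 and -3.50 in young and 3.50 and 3.07 in mature leaves. AAP2 (AT5G09220), a permease of the phloem, had levels of -2.33 and -2.58 in young and 2.26 and 2.31 in mature leaves. The mature arrays of both lay above the young ones, 97.6-fold and 26.7-fold in the means. Among the UMAMIT proteins, many of which carry amino acids, 21 of 37 rose and 7 fell (median 0.52, but -0.39 with spike-in scaling; 3 rises undetected in leaves). UMAMIT17 and UMAMIT28 were at least 46.1-fold and 12.7-fold higher, while UMAMIT27 was at least 18.9-fold lower. GDU2, a regulator of amino acid export, was at least 8.31-fold lower.

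Of 22 nitrate, ammonium and urea transporters 12 rose and 3 fell (median 1.08). NRT1.7 (AT1G69870), which loads nitrate of old leaves into the phloem, had levels of -0.86 and -0.30 in young and 1.06 and 1.41 in mature leaves. NRT1.1 (AT1G12110), the nitrate sensor and importer, had levels of 1.23 and 1.23 in young and -0.73 and -0.77 in mature leaves. They moved apart, NRT1.7 being 3.52-fold higher and NRT1.1 3.94-fold lower in mature leaves. The urea transporter DUR3, undetected in young leaves, was at least 31.8-fold higher, and CLCB, a vacuolar anion channel, rose by 4.82 ± 0.50. In the wider NPF family 13 of 24 genes that carry such a symbol rose and 3 fell (median 0.72, but -0.19 with spike-in scaling), NPF4.3 by 3.64 ± 0.17.

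Among 45 sugar transporters 22 rose and 5 fell (median 0.32, but -0.59 with spike-in scaling; 1 rise undetected in leaves). SWEET11 (AT3G48740), which lets sucrose out of phloem parenchyma, had levels of 1.56 and 1.76 in young and 4.21 and 4.05 in mature leaves. SUC2 (AT1G22710), which loads it into the phloem, had levels of 1.97 and 2.05 in young and 3.74 and 3.53 in mature leaves. They rose 5.53-fold and 3.08-fold, and SWEET15 by 2.60 ± 0.60. The hexose carrier STP13 rose by 2.93 ± 0.44 and the inositol carrier INT2 by 4.29 ± 0.27, while STP5 was at least 13-fold lower and GPT2, a plastid glucose-6-phosphate carrier, fell by 1.28 ± 0.21 (-0.23 with normexp correction, no longer past the threshold).

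Of 38 genes of phosphate transport and starvation 24 rose and 6 fell (median 0.84, but -0.07 with spike-in scaling; 2 rises undetected in leaves). The phosphate exporter gene PHO1;H1 rose by 3.45 ± 0.20, PS2, a phosphatase induced by starvation, by 2.45 ± 0.49, and AT4 (AT5G03545), a non-coding RNA that binds miR399, had levels of -2.92 and -2.47 in young and 1.97 and 1.78 in mature leaves, a 23.7-fold rise. PHT1;5, known to move phosphate out of old leaves, rose by 2.30 ± 0.28 and was detected on 1 of 2 young arrays. PHT1;1, the main carrier of uptake, was detected on 1 of the 4 leaf arrays.

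Metal genes changed in both directions. Of 66 genes of iron, zinc and copper 34 rose and 15 fell, 24 and 9 of them at least 2-fold (median 0.54, but -0.37 with spike-in scaling; 1 rise undetected in leaves). The transcription factors that plants switch on when iron is short, BHLH39 (AT3G56980) with levels of 0.50 and -0.33 in young and -2.40 and -3.58 in mature leaves, and BHLH100 (AT2G41240) with levels of 2.36 and 1.71 in young and -0.80 and -1.22 in mature leaves, were both lower in mature leaves. Their partner FIT fell by 1.81 ± 0.11, and the signal peptide genes IMA1 and IMA2 by 1.73 ± 0.22 and 1.79 ± 0.30. Of the genes that store or move metals, some were higher. NAS3, undetected in young leaves, was at least 21.2-fold and VTL2, a vacuolar iron transporter-like gene, at least 3.14-fold higher. YSL1 (AT4G24120), which carries metal-nicotianamine out of leaves, had levels of -3.90 and -3.74 in young and -0.84 and -0.77 in mature leaves, and YSL3 rose by 2.26 ± 0.11. The ferritins that store iron in plastids went both ways, FER1 rising by 2.15 ± 0.29 and FER3 falling by 2.71 ± 0.21. The ferric reductases FRO4, FRO6 and FRO7 rose by 3.86 ± 0.13, 2.04 ± 0.13 and 1.91 ± 0.32. Of 10 ZIP transporters 7 rose and 1 fell (median 1.16; 1 rise undetected in leaves), ZIP5 by 2.33 ± 0.12, while ZIP7 was at least 12.9-fold lower.

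Of 77 channels and pumps for potassium, sodium, calcium and protons 44 rose and 14 fell (median 0.47, but -0.44 with spike-in scaling; 2 rises undetected in leaves). CAX3 (AT3G51860), a vacuolar calcium exchanger, had levels of -5.69 and -5.53 in young and -1.10 and -1.24 in mature leaves, a 21.7-fold rise. The glutamate-receptor-like channel GLR2.7 rose by 2.93 ± 0.13, and the proton pump AHA2 fell by 1.39 ± 0.09. Aquaporins, the water channels, fell in 15 of 30 genes and rose in 6 (median -0.54, but 0.04 with normexp correction). PIP2;8 (AT2G16850) of the plasma membrane had levels of -0.34 and -0.34 in young and -3.84 and -3.94 in mature leaves. TIP1;1 of the vacuole fell by 2.72 ± 0.27. In contrast TIP2;2 rose by 2.53 ± 0.21 and NIP6;1, a boron channel, by 2.55 ± 0.43. Of 100 ABC transporters 41 rose and 31 fell (median 0.13, but -0.78 with spike-in scaling; 2 rises undetected in leaves). ABCB21 rose by 3.19 ± 0.23, and ABCG13, needed for cutin in flowers, fell by 2.90 ± 0.10. Of 12 purine permeases 8 rose and 1 fell (median 0.67, but -0.24 with spike-in scaling).

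**Figure D4:**
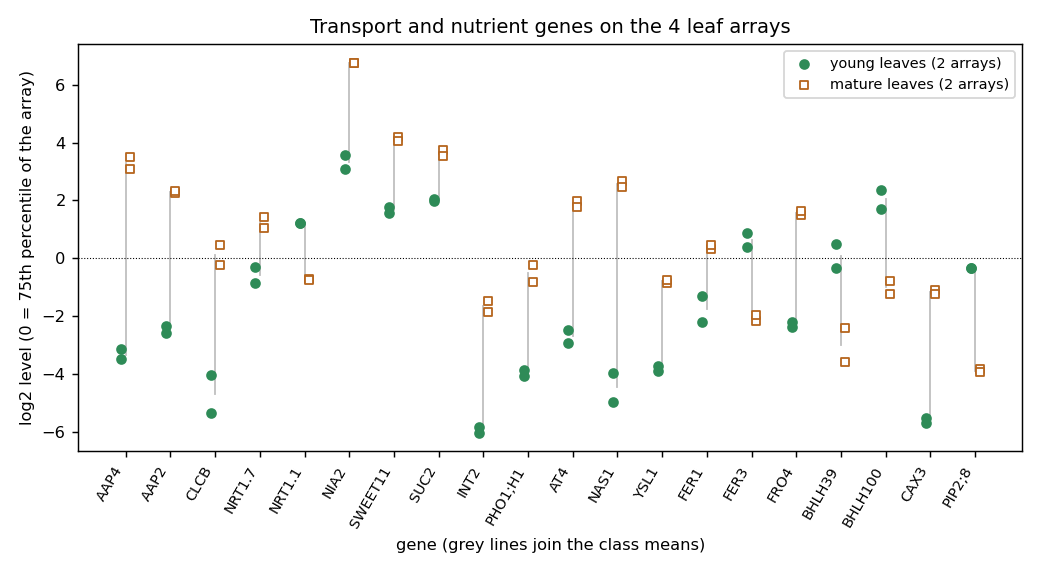
Log2 level on each of the 4 leaf arrays of 20 genes of amino acid, nitrate, sugar, phosphate and metal transport, 2 young (filled circles) and 2 mature arrays (open squares) per gene, relative to the 75th percentile of the array. AAP4, AAP2, CLCB, NAS1 and AT4 lie higher on both mature arrays, and NRT1.1, BHLH39, FER3 and PIP2;8 lie lower.

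Among kinases the CBL-interacting family, which calcium sensors switch on to control channels, stood higher. Of 26 members 21 rose, 14 of them at least 2-fold, and 2 fell (median 1.17). CIPK16 (AT2G25090) had levels of -6.53 and -6.53 in young and -1.42 and -2.05 in mature leaves. CIPK17 (AT1G48260) had levels of -6.72 and -6.38 in young and -2.71 and -2.91 in mature leaves. Both rose, 27.7-fold and 13.4-fold, and CIPK23, known to act on nitrate and potassium carriers, rose by 1.14 ± 0.08 (0.24 with spike-in scaling, no longer past the threshold). CIPK15 fell by 1.26 ± 0.15. The calcium-dependent kinases had 9 rises and 6 falls among 27 (median 0.13, but -0.78 with spike-in scaling; 2 rises undetected in leaves), CPK6 with 1.43 ± 0.15 and CPK2 with -2.52 ± 0.10. The calcium-dependent kinase shares were 33.3% higher and 22.2% lower, beside 35.8% and 35.5% of all genes tested. Of 10 SnRK2 kinases of abscisic acid and drought 7 rose and 1 fell (median 0.69, but -0.21 with spike-in scaling).

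Of 19 MAP kinases 13 rose and 4 fell (median 0.62, but -0.29 with spike-in scaling), and of 29 kinases above them 12 rose and 8 fell (median 0.19, but -0.72 with spike-in scaling). ANP3 and MKK6, which act in a cascade that builds the plate between daughter cells, fell by 3.90 ± 0.12 and 4.17 ± 0.09. MPK13, a MAP kinase that MKK6 can activate, fell by 2.62 ± 0.14. MKK6 (AT5G56580) had levels of -0.64 and -0.65 in young and -4.91 and -4.72 in mature leaves. MPK14 rose by 1.89 ± 0.15. Of 35 genes in a list of calcium-dependent and energy kinases 18 rose and 7 fell (median 0.30, but -0.61 with spike-in scaling). S6K2, a target of the TOR kinase, rose by 2.62 ± 0.13 and WNK4 by 2.80 ± 0.15.

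Receptor-like kinases of growth and of immunity had 22 rises and 22 falls of 60 (median -0.05, but 0.03 with normexp correction and 0.21 with median scaling, and 1 rise undetected in leaves). Each share was 36.7%, near the 35.8% and 35.5% of all genes tested. ERL1, which limits stomata, was at least 7.79-fold lower, and EMS1, a receptor kinase of anthers, fell by 1.63 ± 0.11. Of 7 wall-associated kinases 6 rose and 0 fell (median 1.14; 1 rise undetected in leaves), WAK1 by 3.51 ± 0.15. Of 21 cysteine-rich receptor-like kinases 11 rose and 3 fell (median 0.50, but -0.41 with spike-in scaling; 1 rise undetected in leaves), CRK18 by 3.54 ± 0.10 and CRK4 by 3.07 ± 0.10. Of 32 lectin receptor kinases 13 rose and 9 fell (median 0.20, but -0.70 with spike-in scaling; 1 rise undetected in leaves). LECRK-VI.1 rose by 4.16 ± 0.15 and LECRK-S.7 was at least 16.1-fold lower. Of 36 receptor-like proteins, which lack a kinase domain, 20 rose and 6 fell (median 0.48, but -0.43 with spike-in scaling; 2 rises undetected in leaves).

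**Figure D5:**
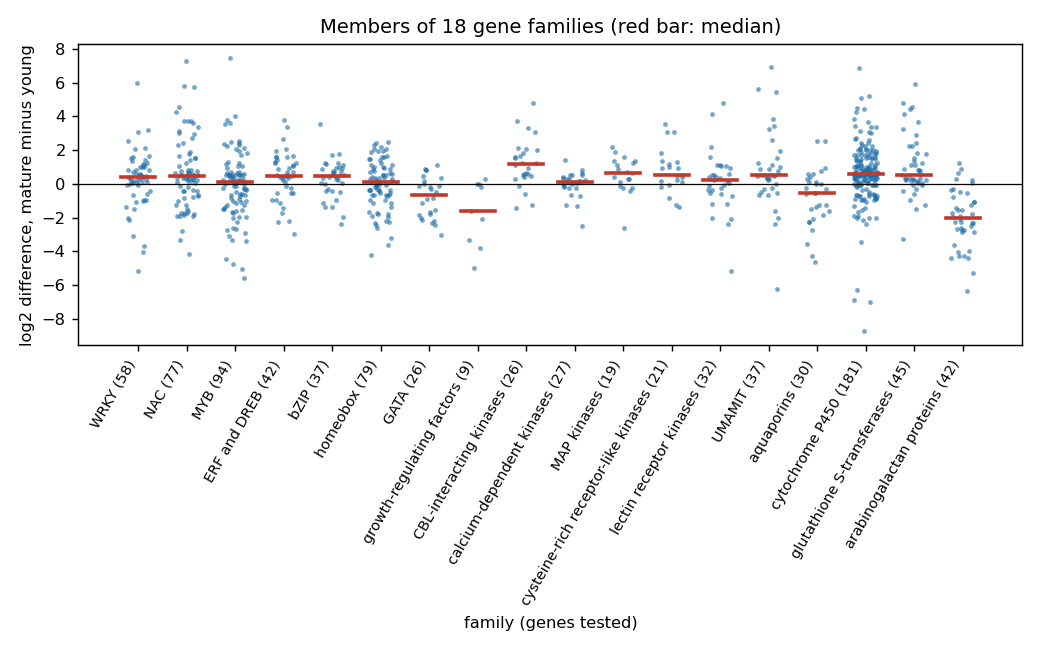
Log2 difference, mature minus young leaves, of each tested member (points) of 18 families of transcription factors, kinases, transporters and enzymes, with the family median (bar) and a line at 0, for signals scaled on the 75th percentile of the array. CBL-interacting kinases lie mostly above 0, arabinogalactan proteins, GATA factors and growth-regulating factors mostly below, and the MYB and WRKY families on both sides.

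Transcription factor families held members that moved in opposite directions. Of 77 NAC genes 40 rose and 20 fell (median 0.46, but -0.45 with spike-in scaling; 6 rises undetected in leaves). NAC3 (AT3G29035) rose by 7.29 ± 0.35, detected on 1 of 2 young arrays, and NAC103, linked to stress of the endoplasmic reticulum, fell by 4.14 ± 0.12. Of 58 WRKY genes 27 rose and 12 fell (median 0.38, but -0.53 with spike-in scaling; 6 rises undetected in leaves). WRKY45 rose by 3.20 ± 0.20 and WRKY57 by 3.05 ± 0.15, while WRKY49 was at least 11.7-fold lower. Among 94 MYB genes that carry a MYB number, 32 rose and 32 fell (median 0.08, but -0.01 with quantile normalization and -0.83 with spike-in scaling, and 10 rises undetected in leaves). Each MYB share was 34.0%, near the 35.8% and 35.5% of all genes tested. MYB112 was undetected in young leaves and at least 54.9-fold higher, and MYB59 and MYB48 rose by 4.0 ± 0.34 and 3.80 ± 0.08. MYB106, which shapes trichomes and cuticle, was at least 44.2-fold lower. Of 42 ERF and DREB genes 20 rose and 10 fell (median 0.49, but -0.42 with spike-in scaling; 2 rises undetected in leaves). ERF72 rose by 3.39 ± 0.15, and CRF4, a cytokinin response factor, fell by 2.25 ± 0.09.

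Among GATA factors falls outnumbered rises. Of 26 members 16 fell, 11 of them at least 2-fold, and 5 rose (median -0.66). GATA2 (AT2G45050), which promotes development in light, had levels of -1.84 and -1.99 in young and -4.98 and -4.95 in mature leaves, an 8.25-fold fall. GATA3 rose by 1.09 ± 0.10 (0.18 with spike-in scaling, no longer past the threshold). Homeobox genes had 32 rises and 30 falls of 79 (median 0.12, but -0.79 with spike-in scaling, and 4 rises undetected in leaves). These shares of 40.5% and 38.0% stood beside 35.8% and 35.5% of all genes tested. The zinc finger homeodomain genes had 7 falls and 4 rises of 12 (median -0.88, or -0.6 with bounds), HB28 with -4.23 ± 0.20. Of 38 MADS box genes 16 rose and 10 fell (median 0.29, but -0.62 with spike-in scaling; 1 rise undetected in leaves). Of 37 bZIP genes 23 rose and 9 fell (median 0.46, but -0.45 with spike-in scaling; 4 rises undetected in leaves), BZIP3 by 3.57 ± 0.51. Of 28 LOB domain genes 15 rose and 7 fell (median 0.52, but -0.39 with spike-in scaling; 5 rises undetected in leaves). LBD37 and LBD39, which repress nitrate genes, rose by 1.80 ± 0.07 and 2.23 ± 0.07. Of 21 bHLH genes that carry such a symbol 11 fell and 6 rose (median -0.44; 1 rise undetected in leaves).

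For the auxin-linked families, 14 of 26 Aux/IAA repressors rose and 6 fell (median 0.46, but -0.45 with spike-in scaling; 1 rise undetected in leaves), with IAA19 falling by 1.78 ± 0.16 and IAA34 rising by 1.85 ± 0.18. Of 15 auxin response factors 9 rose and 3 fell (median 0.53, but -0.38 with spike-in scaling). Of 15 GRAS genes that carry an SCL symbol 9 rose and 3 fell (median 0.54, but -0.37 with spike-in scaling). Of 16 DOF genes 5 rose and 7 fell (median -0.17, but 0.21 with normexp correction and 0.09 with median scaling). Heat shock factors rose in 12 of 20 genes and fell in 3 (median 0.54, but -0.36 with spike-in scaling; 1 rise undetected in leaves), and HSFA6A was at least 16.7-fold higher. Of 30 NF-Y subunits 15 rose and 4 fell (median 0.44, but -0.48 with spike-in scaling), NF-YC13 being lower by a difference of -3.58 ± 0.11. Of 28 B-box genes 10 rose and 1 fell (median 0.63, but -0.28 with spike-in scaling). TCP genes rose in 10 of 20 cases and fell in 7 (median 0.19, but -0.71 with spike-in scaling). SPL genes had 6 rises and 6 falls of 15 (median -0.18, but 0.08 with median scaling), and SPL8 was at least 22.6-fold lower.

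Of 181 cytochrome P450 genes 94 rose and 33 fell, 59 and 16 of them at least 2-fold (median 0.59, but -0.32 with spike-in scaling; 10 rises undetected in leaves). CYP78A9 rose by 5.22 ± 0.25, and CYP77B1 was at least 117-fold lower. Of 56 UDP-glycosyltransferases 32 rose and 11 fell (median 0.52, but -0.39 with spike-in scaling; 5 rises undetected in leaves). UGT73B5 (AT2G15480), which responds to stress, had levels of -4.33 and -4.25 in young and 1.14 and 0.73 in mature leaves, a 37.4-fold rise. Of 45 glutathione S-transferases 22 rose and 6 fell (median 0.51, but -0.40 with spike-in scaling; 2 rises undetected in leaves). GSTU24 (AT1G17170) had levels of -4.61 and -4.11 in young and 1.94 and 1.17 in mature leaves, and GSTF2 rose by 4.53 ± 0.15. Of 34 beta-glucosidases 12 rose and 12 fell (median 0.23, but -0.68 with spike-in scaling), and BGLU15 was at least 13.8-fold lower. Each beta-glucosidase share was 35.3%, near the 35.8% and 35.5% of all genes tested. Of 41 serine carboxypeptidase-like genes 17 rose and 13 fell (median 0.36, but -0.55 with spike-in scaling; 5 rises undetected in leaves), SCPL24 with -5.65 ± 0.11.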

How the data were processed

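Total RNA was labelled with Cy3 and hybridised to 1-colour Agilent arrays, 1 sample an array. Per the file headers, spots were read with Agilent Feature Extraction, and the deposited values used here are its processed signal intensities, background-subtracted and not scaled between arrays. The design text calls the replicates biological. Repeated spots of a probe were averaged without outlier spots, each array was scaled on the 75th percentile of its non-control probes, and log2 was taken. A probe was kept if any of the 4 groups had it well above background on both its arrays, and the brightest kept probe stood for its locus, giving 20629 genes of 25426 loci on the array. Group means were fitted with limma (version 3.58.1, R 4.3.3) on the 8 arrays together (median standard error 0.11, 4 residual degrees of freedom), 2-sided, with Benjamini-Hochberg adjustment over all genes.

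The members and lists were chosen with earlier results of these data known, and lists overlap. Symbols were matched to loci through the RefSeq gene table, and families hold genes that carry the family's symbol. Named are the 10 largest rises and falls on all leaf arrays, the 3 largest lower bounds in each direction, and up to 3 rises and 3 falls of at least 2-fold per list or family, the text taking those whose role is known and that were detected in a leaf class, with a set of fixed genes. A gene of that set is not reported here. Of 306 genes given with values, 46 fall outside that rule and were chosen after their values were seen: CYCB2;4, BUBR1, SPS4F, IVD, ADH1, GLN1;3, ASN2, MYB29, MYB76, FLS1, CUS2, HTH, CER6, LTP2, MUTE, SLAC1, GORK, FAMA, GRF1, GRF3, GRF8, SNZ, SAG21, ABCG25, PYL5, HAI2, HAI1, AOS, VSP2, PR5, DAO1, PHYA, PHT1;5, FIT, IMA1, IMA2, YSL1, YSL3, FER1, FRO4, FRO6, FRO7, AHA2, TIP1;1, CIPK23 and EMS1. A lower bound sets the bright class against the higher of the dim probe's own level and the lowest level well above background on each array. Probes of near-identical copies (defensins, AOC, VSP, nitrilases, histones and ribosomal proteins) may share signal.

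The fit was tested on simulated levels of 20617 genes with 200 changed: 42.4% of changes of 1.5-fold, 66.7% of 2-fold and 89.7% of 4-fold were recovered, and 6 unchanged genes were called. In the data 71.3% of genes were called, and the adjusted p depends on the share of changed genes. These rates therefore hold for the simulated setting and not for the real comparison. Alternatives covered background correction, scaling, the filter, the probe rule, the deposited value table, the arrays fitted, an intensity trend, a replicate block and leaving out each leaf array. Normexp correction used the median spot signal, since the files used here hold no mean signal.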

Additional observations from a re-analysis of the deposited data

How the results depend on the processing

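Scaling decided the split of the calls. With spike-in scaling 1838 genes rose and 14445 fell, 1091 and 9066 of them at least 2-fold, and of the 121 gene lists and families 9 had a median above 0, against 87 with the 75th percentile. The cause of that shift was not tested. Median scaling gave 9878 higher and 5672 lower, and normexp correction 10376 and 5922, with 1978 genes at least 2-fold lower. Without any filter on dim probes 9799 genes were higher and 7311 lower. Under the other alternatives each of the 4 counts stayed within 1.5 times its value. Leaving out each leaf array in turn gave 6248 to 6636 genes higher and 6540 to 6855 lower, 2737 to 2966 and 3761 to 3843 of them at least 2-fold, with the lone array assumed to vary like the other groups. With the replicate number as a block 7586 genes were higher and 7476 lower, and no call on a named gene changed. Same-numbered leaf arrays had deviations correlated at 0.251 over genes, and 2 pairs do not show that the numbers pair the samples. All 4 leaf arrays share a slide and a scan, so a slide block leaves the contrast as it is and was not run, and the promoter motifs were not run for want of a promoter table here. Of 306 named genes 282 kept their direction and their side of the threshold in every setting that gave a value. With spike-in scaling the difference of RBCS1A became -0.51, of GS2 -0.89, of CER6 -0.25, of GRF3 -0.90, of MYC2 -0.18 and of ICS1 -0.66. RBCS1A also turned to -0.17 with quantile normalization and -0.16 with the mean over probes, where GS2 was -0.46, and GA2OX2 turned to 0.12 with normexp correction. Calls were lost with spike-in scaling for EIF5A (0.16), LHCB7 (0.30), EXPA1 (0.22), CIPK23 (0.24), GATA3 (0.18) and CCA1 (0.86), and with normexp correction for RBCS1A (0.12), GRF5 (-0.20), AS2 (-0.14), CYP707A3 (-0.05), ACS11 (-0.21) and GPT2 (-0.23). The call on CER6 was lost with the mean over probes (0.36), and that on CCA1 also with quantile normalization (1.72), the mean over probes (1.72), no filter on dim probes (1.76) and the 4 leaf arrays alone (1.76). Calls were gained in the same direction on 4 named genes with spike-in scaling, 2 with normexp correction and 2 with median scaling. With 2 arrays a class, their number limits the precision, and genes near the detection floor have bounds only.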
